A study of Mus musculus with 9 samples.

Results

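A set of 10 genes known from blood vessel endothelium, among them the depletion marker itself, were followed through 9 RNA libraries of sorted fetal mouse testis cells. The 10 genes (Pecam1, Cdh5, Esam, Cldn5, Tie1, Emcn, Plvap, Sox7, Sox17 and Sox18) were given as a list and matched by symbol to the identifiers of the count table. All 10 had a match among the 38560 genes of the table, and all 10 passed the filter on low counts. The libraries came from 3 sorts, named Leydig, Interstitial and Sertoli, with replicates A, B and C in each. All were made from gonads of the Sf1-eGFP strain at 12.5 days post coitum (dpc), classed as testes by their cords. In this strain a green fluorescent reporter follows Sf1, the nuclear receptor gene also called Nr5a1, so the reporter marks gonadal somatic cells. An antibody against CD31, the protein of Pecam1, was used to take out endothelial and germ cells, and all 3 sorts share this step. No source used here gives the gates that set the sorts apart. Material for a library, 100 ng of RNA, came from about 10 sorts on separate days, each of 4 to 10 litters. Besides A and B, the protocol names a mixture of them. Replicate C was taken to be that mixture by elimination, and the tests used A and B only.

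Endothelial cells line blood and lymph vessels. They hold together through the cadherin of Cdh5 and through claudin-5, and they carry CD31 at their contacts. The transcription factors Sox7, Sox17 and Sox18, which form the SOXF group, take part in the specification of endothelium and of arteries. In the fetal testis, endothelial cells migrate in from the mesonephros and help to partition the gonad into cords. CD31 is not restricted to endothelium. It is also found on fetal germ cells, platelets and several leukocytes.

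Reads in genes ranged from 33123254 to 39244060 per library, and a count of 0 allowed up to 3 reads, or 0.0764 to 0.0906 CPM (counts scaled to a fixed library total). The lowest count of any of the 10 genes was 19 reads, for Sox17 in Sertoli replicate B. The spread between the 4 lanes of a library was that of counting alone, with a chi-square of 0.997 per degree of freedom over 90 pairs of gene and library. Summed CPM of 9 Sertoli markers was 1209 to 1276 in Leydig, 172 to 197 in Interstitial and 3890 to 4133 in Sertoli. The 6 fetal Leydig markers summed to 236 to 447 CPM in Leydig, 42.2 to 65.8 in Interstitial and 251 to 300 in Sertoli, and all 6 went uncalled between Leydig and Sertoli by edgeR.

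Endothelial transcripts were still present in every library. Summed over the 10 genes, the level was 166 to 191 CPM in Leydig, 161 to 201 in Interstitial and 36.7 to 39.5 in Sertoli. Without Pecam1, the other 9 summed to 142 to 155 CPM in Leydig, 88.5 to 132 in Interstitial and 26.3 to 27.9 in Sertoli. The 10 genes did not follow one pattern. Between Leydig and Interstitial, where 45.1% of all 18048 genes tested were called, 6 of the 10 (Cdh5, Cldn5, Tie1, Sox7, Sox17, Sox18) were higher in Leydig, as were 22.0% of all genes. Pecam1 and Plvap were lower, as were 23.2% of all genes, and Emcn and Esam were not called. Without Interstitial replicate B, the log2 fold changes of Cdh5, Cldn5 and Tie1 fell from 0.54, 0.57 and 0.51 to 0.28, 0.4 and 0.25. Their calls were lost. Emcn went from -0.18 to -0.51 and was called lower. Sox7, Sox17 and Sox18 stayed at 0.89 or above under all alternatives. Fewer of all genes were called without that library. Between Leydig and Sertoli, 9 of 10 were higher in Leydig, against 16.9% of all genes, and 0 were lower, against 20.6% (37.5% in either direction). Between Interstitial and Sertoli, 9 of 10 were higher in Interstitial, against 32.7% of all genes, and 0 were lower, against 29.1% (61.8% in either direction). The gene not called was Plvap between Leydig and Sertoli, and Sox18 between Interstitial and Sertoli. Both counts of 0 were also 0 at an unadjusted p under 0.05, with DESeq2 and with limma voom. In such bulk samples, fewer cells of a type and less RNA per cell cannot be told apart. Unless a unit is named, levels below are CPM scaled by TMM (trimmed mean of M-values), and differences are log2 fold changes with their standard error (SE) from edgeR's quasi-likelihood test. A gene was called when its adjusted p was under 0.05.

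**Figure D1:**
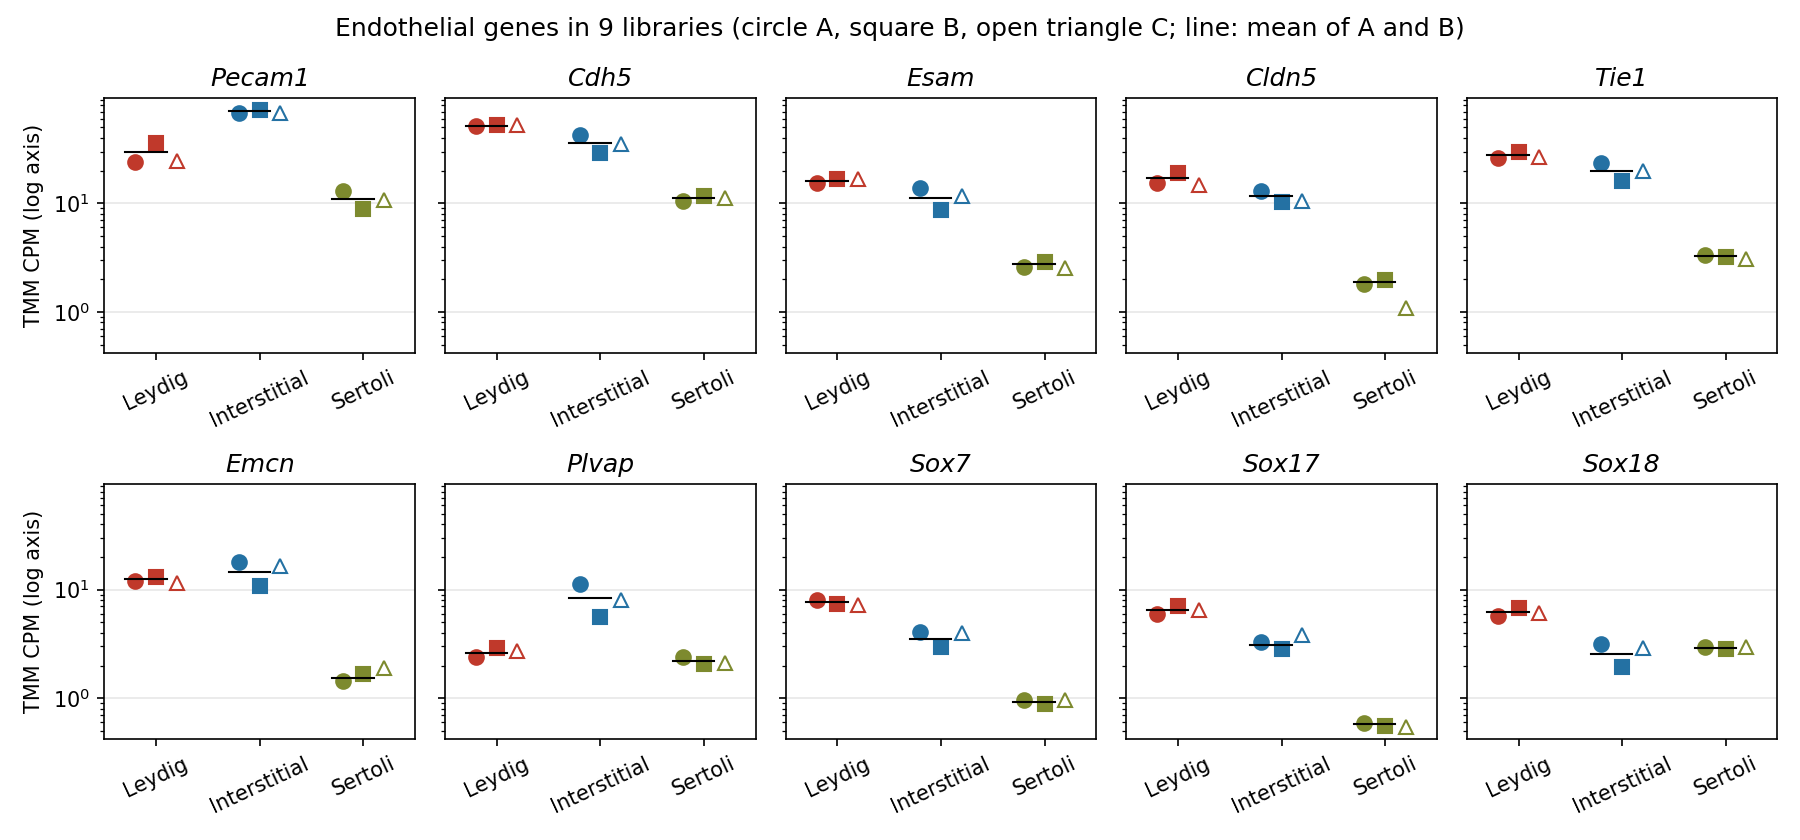
Levels of the 10 genes in TMM-scaled CPM on a log axis, by library, with Leydig, Interstitial and Sertoli from left to right. Circles are replicate A, squares B and open triangles C, and the line is the mean of A and B. Pecam1 and Plvap are highest in Interstitial, while Sox18 has about the same level in Interstitial and Sertoli.

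Pecam1 encodes the adhesion molecule CD31 (ENSMUSG00000020717, chromosome 11, 106654217 to 106750628, minus strand, GRCm38, on which all positions here are given). It had 24.2, 35.9 and 24.3 CPM in Leydig libraries A, B and C, 68.2, 73 and 68.5 in Interstitial, and 12.9, 8.83 and 10.7 in Sertoli. The 3 groups did not overlap. Leydig was lower than Interstitial by 1.22 on the log2 scale (log2 fold change -1.22 ± 0.19, edgeR adjusted p 0.00127). Without Leydig replicate A the difference was -0.96, and without Leydig replicate B it was -1.54. Against Sertoli, Pecam1 was higher in Leydig (1.42 ± 0.21, edgeR adjusted p 0.000771) and in Interstitial (2.64 ± 0.21, edgeR adjusted p 9.49e-06). As a share of the reads of the 10 genes, Pecam1 made up 14.4 to 18.8% in Leydig, 34 to 45.2% in Interstitial and 24.1 to 32.8% in Sertoli.

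Cdh5 encodes vascular endothelial cadherin, the adhesion protein of endothelial adherens junctions (ENSMUSG00000031871, chromosome 8, 104101625 to 104144511, plus strand). It had 51.1, 52.1 and 52.9 CPM in Leydig libraries A, B and C, 42.5, 29.1 and 35.2 in Interstitial, and 10.5, 11.8 and 11.2 in Sertoli. All 3 Leydig libraries were above all 3 Interstitial libraries, which in turn were above Sertoli. The difference between Leydig and Interstitial was 0.54 ± 0.15 (edgeR adjusted p 0.0196), and it was 0.28 without Interstitial replicate B and no longer called (edgeR adjusted p 0.081). Against Sertoli, Cdh5 was 4.49-fold higher in Leydig (2.17 ± 0.17, edgeR adjusted p 1.81e-05) and 3.09-fold higher in Interstitial (1.63 ± 0.17, edgeR adjusted p 4.14e-05).

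The reads of Pecam1 per read of Cdh5 set Interstitial apart from Leydig and Sertoli, in a ratio where depth and scaling cancel. This ratio was 0.473, 0.689 and 0.459 in Leydig libraries A, B and C, 1.6, 2.51 and 1.94 in Interstitial, and 1.24, 0.747 and 0.954 in Sertoli. The exact 95% intervals, which cover counting error only, ran from 0.423 to 0.741 over the Leydig libraries, from 1.51 to 2.7 over Interstitial and from 0.641 to 1.42 over Sertoli. Every Interstitial library was thus above every Leydig and Sertoli library. The intervals of Leydig replicate B (0.641 to 0.741) and Sertoli replicate B (0.641 to 0.869) overlapped. The replicates differed by more than counting error, with B above A in Leydig and in Interstitial and below it in Sertoli. With 2 independent pools per group, an exact two-sided permutation test cannot go below a p of 0.333, so the ratio was not tested.

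**Figure D2:**
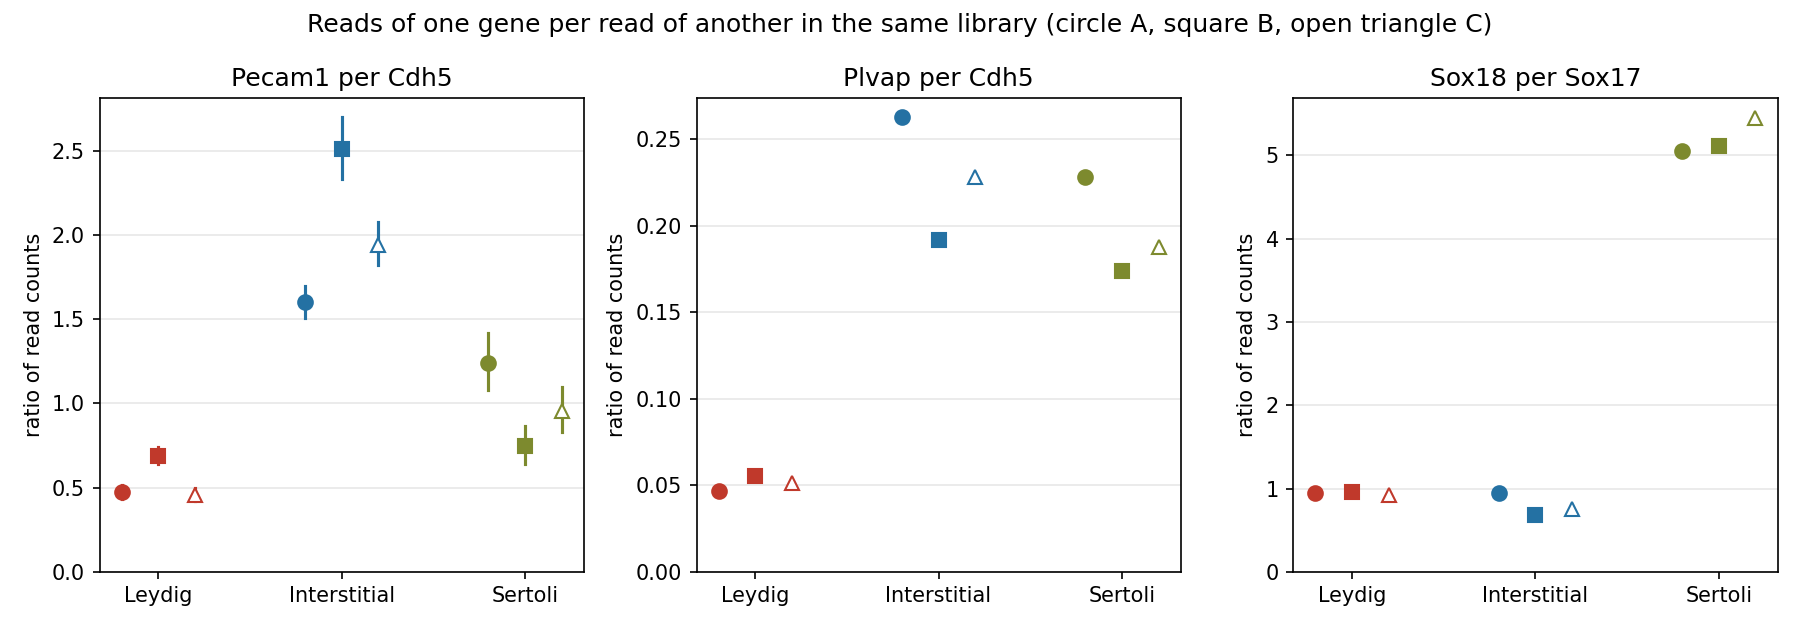
Ratios of read counts within each library on linear axes from 0, for Pecam1 per Cdh5 (with exact 95% intervals), Plvap per Cdh5 and Sox18 per Sox17. Leydig, Interstitial and Sertoli run from left to right, and marks are circles for replicate A, squares for B and open triangles for C. Pecam1 per Cdh5 is highest in Interstitial (1.6 to 2.51), and Sox18 per Sox17 is highest in Sertoli (5.05 to 5.45).

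Markers of other cells that carry CD31 were measured beside Pecam1. Of 16 germ cell markers, 15 were tested, and 14 of these were lower in Leydig than in Interstitial, against 23.2% of all genes. The 1 that was higher, against 22.0% of all genes, was Fut4 (0.45, edgeR adjusted p 0.0232). The 16 germ cell markers summed to 114, 333 and 174 CPM in Leydig libraries A, B and C. Their sum was 1077, 1242 and 1196 CPM in Interstitial, and 151, 109 and 142 in Sertoli. Between A and B, the replicate with more germ cell signal also had more Pecam1 in each of the 3 sorts. In Leydig the ratio of B to A was 1.49 for Pecam1 and 0.918 to 1.24 for the other 9 genes. The germ cell gene Dazl, which encodes an RNA-binding protein, was at 22.6, 99.8 and 44.5 CPM in Leydig and at 361, 432 and 433 in Interstitial. A list of 12 megakaryocyte and platelet markers summed to 17.7 to 22.4 CPM in Leydig, 42.7 to 50.4 in Interstitial and 10.2 to 11.7 in Sertoli, with 2 of 8 tested lower in Leydig than in Interstitial (Itgb3 and Itga2b, which encode integrin chains), a share close to the 23.2% of all genes. The other 6 were not called, among them the platelet chemokine genes Pf4 (-0.02) and Ppbp (1.16). The 14 macrophage and leukocyte markers summed to 27.8 to 43.3 CPM in Leydig, 78.9 to 118 in Interstitial and 9.2 to 10.2 in Sertoli. Of these, 13 of 14 were lower in Leydig than in Interstitial, against 23.2% of all genes. No marker of these 3 lists was without reads in all libraries of a sort. The part of these cells in the Pecam1 levels was not tested.

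**Figure D3:**
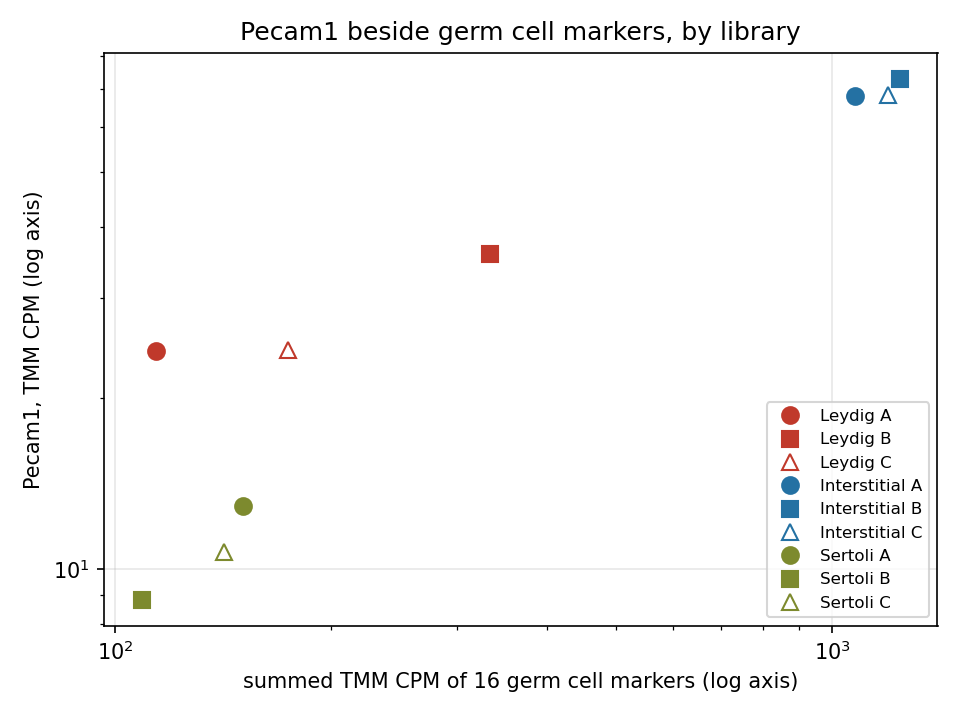
Pecam1 in TMM-scaled CPM against the summed CPM of 16 germ cell markers, both on log axes, with one mark per library (red Leydig, blue Interstitial, green Sertoli; circle A, square B, open triangle C). The Interstitial libraries lie at 1077 to 1242 CPM of germ cell markers and 68.2 to 73 CPM of Pecam1. Leydig replicates A and C lie above the Sertoli libraries at similar germ cell levels.

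Esam, an immunoglobulin-family adhesion molecule of endothelial tight junctions and of platelets (ENSMUSG00000001946, chromosome 9, 37528078 to 37538319, plus strand), had 15.4, 16.9 and 16.6 CPM in Leydig libraries A, B and C. In Interstitial it had 13.8, 8.73 and 11.8 CPM, and in Sertoli 2.61, 2.88 and 2.53. Leydig lay above Interstitial in every library, but the difference missed the threshold (0.53 ± 0.19, edgeR adjusted p 0.0526). Over 18 settings, the main one included, it passed in 9. Against Sertoli, Esam was higher in Leydig (2.51 ± 0.22, edgeR adjusted p 3.77e-05) and in Interstitial (1.99 ± 0.22, edgeR adjusted p 7.21e-05).

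Cldn5 encodes claudin-5, the main claudin of endothelial tight junctions (ENSMUSG00000041378, chromosome 16, 18776847 to 18778262, plus strand). Its levels were 15.4, 19.1 and 14.9 CPM in Leydig libraries A, B and C, 13, 10.4 and 10.6 in Interstitial, and 1.8, 1.97 and 1.08 in Sertoli. The groups did not overlap. Against Sertoli, Leydig was 8.89-fold higher (3.15 ± 0.18, edgeR adjusted p 4.44e-06) and Interstitial 5.98-fold higher (2.58 ± 0.18, edgeR adjusted p 4.64e-06). The difference between Leydig and Interstitial was 0.57 ± 0.15 (edgeR adjusted p 0.014). It was not called without Leydig replicate B (0.4), without Interstitial replicate B (0.4) or with lanes 3 and 4 only.

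Tie1 encodes a receptor tyrosine kinase that modulates angiopoietin signalling through its partner Tie2, the product of Tek (ENSMUSG00000033191, chromosome 4, 118471191 to 118490061, minus strand). It had 26.2, 29.7 and 26.7 CPM in Leydig libraries A, B and C, 23.4, 16.2 and 19.7 in Interstitial, and 3.34, 3.2 and 3.05 in Sertoli. All Leydig libraries were the highest and all Sertoli libraries the lowest. Leydig and Interstitial differed by 0.51 ± 0.16 (edgeR adjusted p 0.0288). That call held in 11 of 18 settings. It was lost without Leydig replicate B (0.41), without Interstitial replicate B (0.25), and when either Sertoli library was left out (0.51 both times). The call was also lost with library size alone, with lanes 3 and 4 only, and when only the 2 groups compared were fitted. Against Sertoli, Tie1 was 8.29-fold higher in Leydig (3.05 ± 0.19, edgeR adjusted p 6.18e-06) and 5.82-fold higher in Interstitial (2.54 ± 0.19, edgeR adjusted p 6.07e-06).

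Emcn encodes endomucin, a surface sialomucin of capillary and venous endothelium (ENSMUSG00000054690, chromosome 3, 137341067 to 137432185, plus strand). It had 12, 13.2 and 11.4 CPM in Leydig libraries A, B and C, 17.9, 10.9 and 16.5 in Interstitial, and 1.43, 1.67 and 1.91 in Sertoli. Leydig and Interstitial overlapped through Interstitial replicate B, and their difference was -0.18 ± 0.21 (edgeR adjusted p 0.513). It was 0.22 without Interstitial replicate A (edgeR adjusted p 0.361) and -0.51, and called, without Interstitial replicate B (edgeR adjusted p 0.0407). Against Sertoli, Emcn was 7.87-fold higher in Leydig (2.98 ± 0.26, edgeR adjusted p 3.66e-05) and 8.93-fold higher in Interstitial (3.16 ± 0.26, edgeR adjusted p 1.1e-05).

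Promoter windows were at hand for these last 3 genes, all of them lowest in Sertoli. The windows run from 250 bases before to 50 bases after the gene's start in RefSeq (GRCm38.p6), and are shown 5′ to 3′ on the gene's strand because ETS factors such as Erg and Fli1 are known regulators of endothelial genes. Capitals mark the ETS core GGAA or its reverse complement TTCC. The Cldn5 window is chr16:18776597-18776896 on the plus strand, that of Emcn chr3:137340828-137341127 on the plus strand, and that of Tie1 chr4:118489800-118490099 on the minus strand.
Cldn5: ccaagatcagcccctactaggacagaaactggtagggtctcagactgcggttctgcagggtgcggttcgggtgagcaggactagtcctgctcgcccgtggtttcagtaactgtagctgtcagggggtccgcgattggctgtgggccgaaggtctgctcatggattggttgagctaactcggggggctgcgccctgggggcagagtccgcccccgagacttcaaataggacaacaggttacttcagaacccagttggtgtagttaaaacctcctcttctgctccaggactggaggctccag
Emcn: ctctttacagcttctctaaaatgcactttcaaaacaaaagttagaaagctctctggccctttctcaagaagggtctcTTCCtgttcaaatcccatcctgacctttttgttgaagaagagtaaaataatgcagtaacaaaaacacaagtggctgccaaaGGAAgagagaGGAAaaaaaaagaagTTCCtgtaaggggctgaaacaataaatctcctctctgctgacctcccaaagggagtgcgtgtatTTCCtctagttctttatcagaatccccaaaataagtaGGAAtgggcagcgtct
Tie1: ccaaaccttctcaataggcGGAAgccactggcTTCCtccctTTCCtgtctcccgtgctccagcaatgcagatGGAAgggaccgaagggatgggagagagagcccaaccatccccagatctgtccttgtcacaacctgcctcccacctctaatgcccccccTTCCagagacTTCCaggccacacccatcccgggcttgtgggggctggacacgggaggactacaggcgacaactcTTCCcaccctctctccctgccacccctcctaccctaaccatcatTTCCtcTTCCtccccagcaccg
The Tie1 window held 9 matches to the ETS core on both strands together, the Emcn window 6 and the Cldn5 window 0. Of 32534 distinct promoter windows of the same length, 96% held at least 1 match, 15.7% at least 6 and 1.59% at least 9. The SOX motif ACAAT, searched on both strands, was in the Emcn window once and in neither of the others, while 30.8% of all windows held it. No match of one motif overlapped a match of the other.

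Plvap encodes the protein of the diaphragms that span fenestrae and caveolae of endothelium (ENSMUSG00000034845, chromosome 8, 71497765 to 71511752, minus strand). It had 2.38, 2.88 and 2.71 CPM in Leydig libraries A, B and C, 11.2, 5.59 and 8.02 in Interstitial, and 2.38, 2.05 and 2.1 in Sertoli. All Interstitial libraries stood above the rest, while Leydig and Sertoli overlapped. Plvap was 3.16-fold lower in Leydig than in Interstitial (-1.66 ± 0.31, edgeR adjusted p 0.00282). The difference was -1.08 without Interstitial replicate A and -2.09 without Interstitial replicate B, and it was called both times. Interstitial was 3.64-fold higher than Sertoli (1.86 ± 0.32, edgeR adjusted p 0.000884), with 1.33 without Interstitial replicate A and 2.33 without replicate B. Between Leydig and Sertoli the difference was 0.2 ± 0.34 (edgeR adjusted p 0.684). Reads of Plvap per read of Cdh5 were 0.0466 to 0.0554 in Leydig, 0.192 to 0.263 in Interstitial and 0.174 to 0.228 in Sertoli. On this ratio it was Leydig that stood apart. Gtpbp3, a neighbour on the opposite strand, overlaps the Plvap locus but shares no exonic base with it in GENCODE M21.

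**Figure D4:**
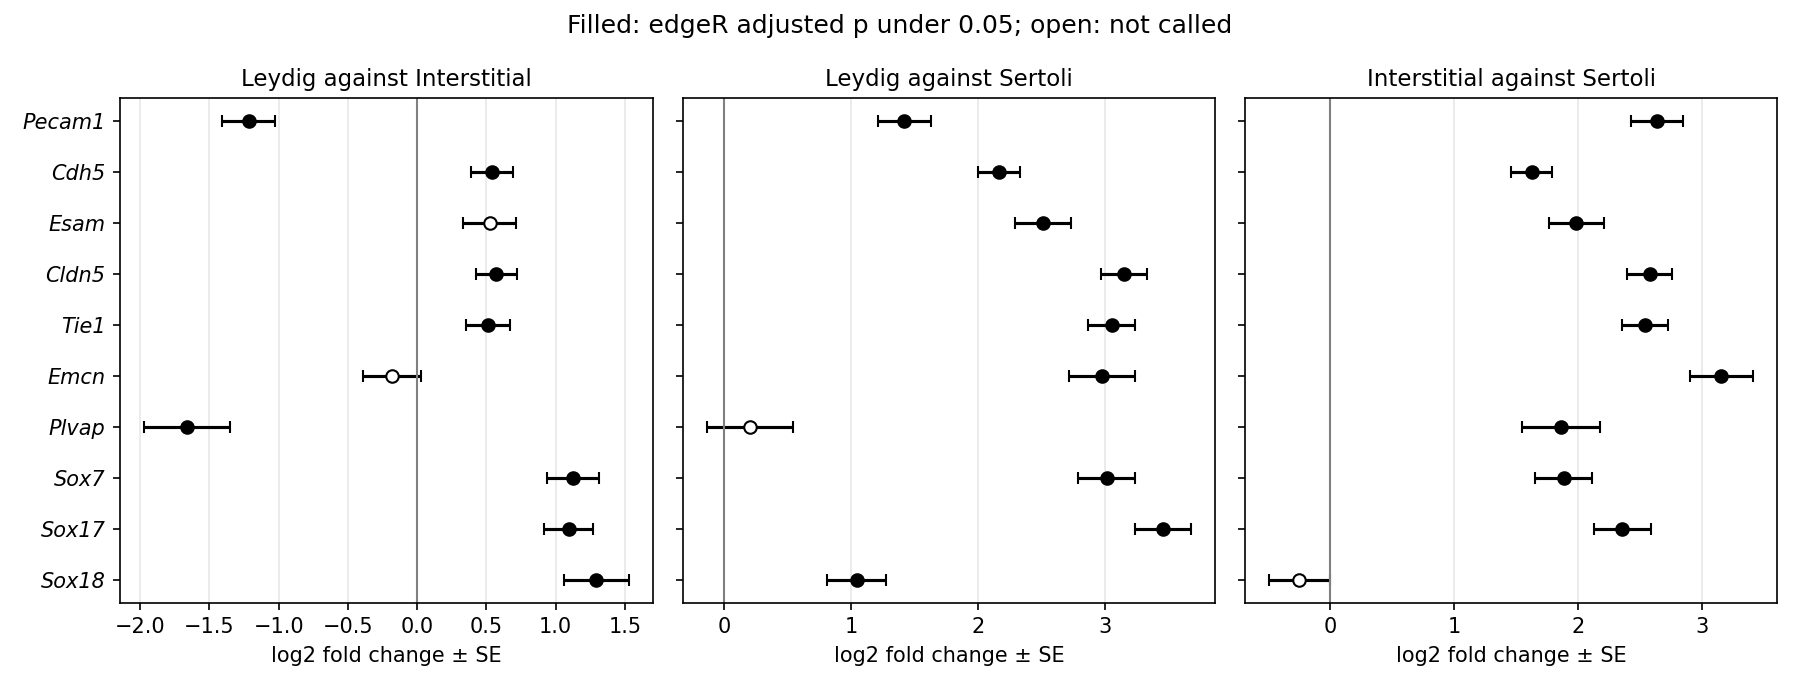
Log2 fold changes of the 10 genes with their SE from edgeR, in a panel each for Leydig against Interstitial, Leydig against Sertoli and Interstitial against Sertoli. Filled points have an adjusted p under 0.05 and open points were not called. Pecam1 (-1.22) and Plvap (-1.66) lie left of 0 in the first panel, where the SOXF genes lie at 1.10 to 1.29.

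Of the SOXF genes, Sox7 (ENSMUSG00000063060, chromosome 14, 63943673 to 63950732, plus strand) had 7.97, 7.32 and 7.15 CPM in Leydig libraries A, B and C, 4.11, 2.94 and 4.01 in Interstitial, and 0.954, 0.88 and 0.97 in Sertoli. Sox17 (ENSMUSG00000025902, chromosome 1, 4490931 to 4497354, minus strand) had 5.99, 7.03 and 6.52 CPM in Leydig, 3.32, 2.82 and 3.79 in Interstitial, and 0.589, 0.557 and 0.539 in Sertoli. Both genes ran down from Leydig over Interstitial to Sertoli with no overlap. Leydig against Interstitial gave 1.13 ± 0.19 for Sox7 (edgeR adjusted p 0.00171) and 1.10 ± 0.18 for Sox17 (edgeR adjusted p 0.00138). Leydig against Sertoli gave 3.01 ± 0.22 for Sox7 (edgeR adjusted p 1.61e-05) and 3.46 ± 0.22 for Sox17 (an 11-fold difference, edgeR adjusted p 7.32e-06). Interstitial against Sertoli gave 1.89 ± 0.23 for Sox7 (edgeR adjusted p 0.000135) and 2.36 ± 0.23 for Sox17 (edgeR adjusted p 3.29e-05). Gm37587, a gene on the opposite strand that shares 804 exonic bases with Sox17, is not in the count table, and whether its reads were counted to Sox17 was not tested.

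Sox18, which is also known for its part in lymphatic specification in the mouse (ENSMUSG00000046470, chromosome 2, 181669836 to 181671640, minus strand), had 5.66, 6.72 and 6.04 CPM in Leydig libraries A, B and C. In Interstitial it had 3.14, 1.92 and 2.87 CPM, and in Sertoli 2.97, 2.85 and 2.94. Leydig stood above both other sorts, which overlapped. Leydig against Interstitial gave 1.29 ± 0.23 (edgeR adjusted p 0.00236), with 0.98 to 1.69 when single replicates were left out. Leydig against Sertoli gave 1.05 ± 0.23 (edgeR adjusted p 0.00727), and the call was lost when Sertoli replicate A (1.08, edgeR adjusted p 0.0505) or B (1.01, edgeR adjusted p 0.0582) was left out. Interstitial against Sertoli gave -0.25 ± 0.24 (edgeR adjusted p 0.406). Reads of Sox18 per read of Sox17 were 0.925 to 0.955 in Leydig, 0.68 to 0.948 in Interstitial and 5.05 to 5.45 in Sertoli. The Sertoli ratio rests on 19 to 21 reads of Sox17 a library, and the ratio was not tested.

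Over the 10 genes, the median log2 fold change of Leydig against Interstitial was 0.53, against 0.01 over all genes. For Leydig against Sertoli it was 2.74, against -0.01 over all genes, and for Interstitial against Sertoli 2.17, against 0.04. Each pair of comparisons shares libraries, so they are not independent of each other.

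Interstitial replicate B had the lower level of the pair A and B for 9 of the 10 genes, with ratios of B to A down to 0.501 for Plvap. Pecam1 was the exception, at 1.07. Interstitial replicate B also had more macrophage and leukocyte signal than replicate A (118 against 78.9 CPM), whose part in these levels was not tested. In Leydig, replicate B was higher than A for 9 of 10 genes, the exception being Sox7. In Sertoli, 4 were higher in B and 6 in A. Replicate C lay between A and B in 19 of 30 pairs of gene and sort, and its ratio to their mean ran from 0.573 (Cldn5 in Sertoli, 40 reads) to 1.23, with a median of 0.983.

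Compared per length, in TPM (transcripts scaled to length and to a fixed total) over the merged exons of GENCODE M21, the order of the 10 genes differed between sorts. In Leydig, Cdh5 (32.3 ± 1.13 TPM, SD over replicates A and B) and Cldn5 (32 ± 5.55) led and did not differ beyond their spread. Tie1 (14.9 ± 1.64), Esam (14.8 ± 1.28) and Pecam1 (12.7 ± 3.77) formed the next step, within their spread of each other, followed by Sox18 (10.1 ± 1.43), which also lay within that of Pecam1. Emcn (6.12 ± 0.533) and Sox7 (6.09 ± 0.237) came next, and Sox17 (3.59 ± 0.484) and Plvap (3.48 ± 0.548) were lowest, again in pairs that did not differ beyond their spread. In Interstitial, Pecam1 led with 29.5 ± 2.08 TPM, above Cdh5 (22.1 ± 5.39) and Cldn5 (21.4 ± 2.97), and Plvap (10.9 ± 4.92) stood level with Tie1 (10.4 ± 2.48) and Esam (10.2 ± 3.05). Emcn (6.9 ± 2.25), Sox18 (4.05 ± 1.3), Sox7 (2.77 ± 0.589) and Sox17 (1.67 ± 0.152) followed in Interstitial. In Sertoli, Cdh5 led with 6.78 ± 0.997 TPM, and Sox18 was the next at 4.57 ± 0.138, within the spread of Pecam1 (4.42 ± 0.914). Below them in Sertoli came Cldn5 (3.39 ± 0.424), Plvap (2.84 ± 0.126), Esam (2.44 ± 0.317) and Tie1 (1.69 ± 0.0524). Emcn (0.734 ± 0.125), Sox7 (0.707 ± 0.00318) and Sox17 (0.306 ± 0.0068) were the lowest there. The order rests in part on the length used. With the longest transcript of each gene, Pecam1 was at 19.6 TPM in Leydig, the third, and at 6.81 TPM in Sertoli, the first.

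Among 14584 genes of at least 1 CPM on average, those whose log2 CPM over the 6 libraries of replicates A and B ran closest to the mean of the 9 genes other than Pecam1 were Cd93 (Pearson r 0.9997), Robo4 (0.9985), Icam2 (0.9973), Gimap4 (0.9972) and Cd34 (0.9969). Cd93, a C-type lectin-like receptor of endothelium, had 48.4, 52.3 and 50 CPM in Leydig libraries A, B and C, 43.2, 29.5 and 38.5 in Interstitial, and 8.5, 8.51 and 8.25 in Sertoli. Of these 5 genes, 4 are on the list of other endothelial genes below, and Gimap4 is on none of the lists. The 5 genes nearest to Pecam1 were Rab38 (r 1.00), Nme1 (0.9987), Ccne1 (0.9981), Ttpa (0.998) and Fam118a (0.9978), none of them on a list used here. Ccne1, which encodes cyclin E1 of the cell cycle, had 15.1, 18.6 and 15.1 CPM in Leydig, 31.5, 31.5 and 30.9 in Interstitial, and 10.1, 7.86 and 8.71 in Sertoli. Each r rests on 6 libraries that fall into 3 sorts and is given as a description only. Among the 10 genes, r with Pecam1 was 0.62 to 0.87 for 8 genes and -0.15 for Sox18, and r between Sox18 and Plvap was -0.39.

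A list of 35 other endothelial genes gave a wider view. Between Leydig and Interstitial, 16 of 35 were higher in Leydig and 1 lower, against 22.0% and 23.2% of all genes, with a median log2 fold change of 0.48 (0.01 over all genes). Without Interstitial replicate B fewer of the 35 were called higher, as were fewer of all genes. The 1 lower gene lost its call there and without Leydig replicate A. The 1 that was lower was Stab1 (-0.59, edgeR adjusted p 0.0223), a scavenger receptor of sinusoidal endothelium and of macrophages. Of the 5 genes with the largest differences, Exoc3l2, Tinagl1 and S1pr1 were higher still in Sertoli. Exoc3l2 had 14, 11.9 and 12.2 CPM in Leydig libraries A, B and C, 3.07, 2.45 and 2.29 in Interstitial, and 41.9, 37.6 and 38.8 in Sertoli (Leydig against Interstitial 2.24 ± 0.15, edgeR adjusted p 1.23e-05). Tinagl1, which encodes a matrix protein, had 79.6, 75.6 and 74.8 CPM in Leydig, 19.6, 20.3 and 17.1 in Interstitial, and 221, 229 and 202 in Sertoli. The sphingosine-1-phosphate receptor gene S1pr1 had 20.5, 18.5 and 19.6 CPM in Leydig, 8.39, 7.34 and 8.4 in Interstitial, and 42.6, 42.4 and 41.8 in Sertoli. Gpr182 and Nostrin were the other two of the 5 largest, at 1.75 ± 0.15 and 1.40 ± 0.29 (edgeR adjusted p 5.27e-05 and 0.00423). These 5 were called towards Sertoli in Interstitial against Sertoli, so as a group they did not follow the 10 genes.

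**Figure D5:**
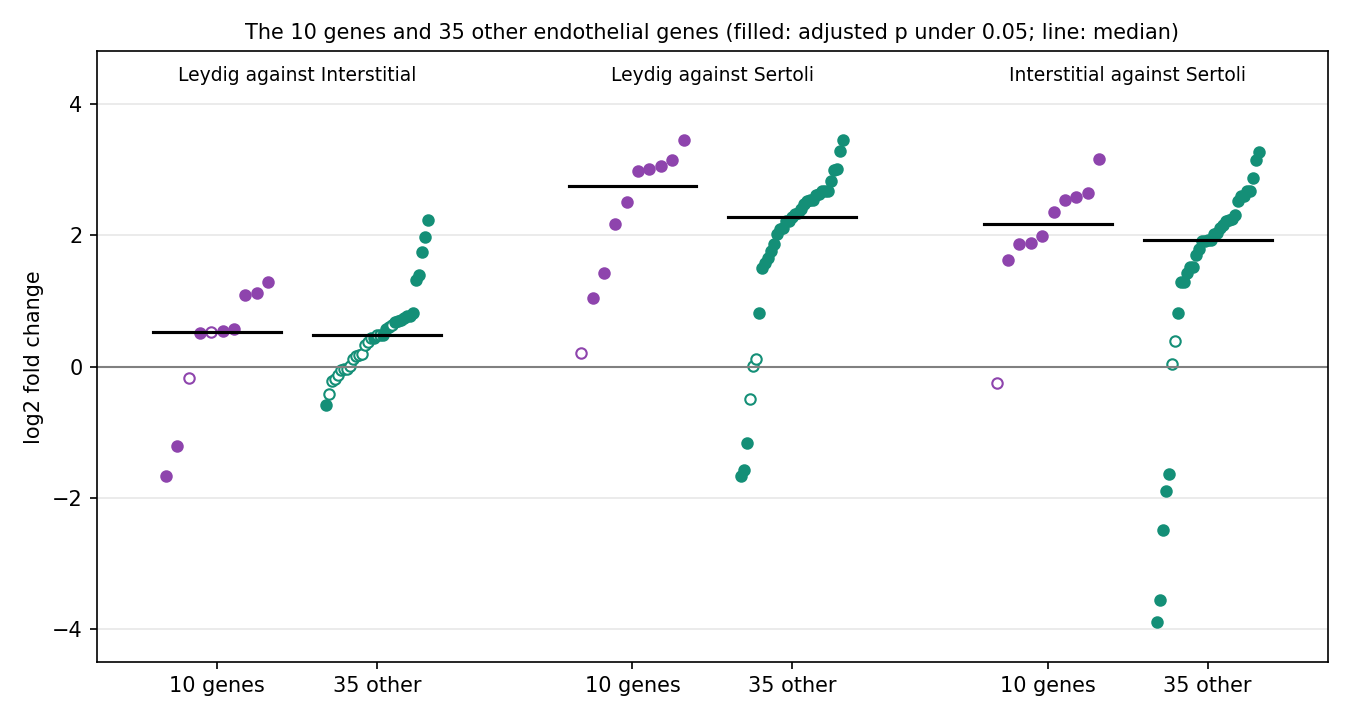
Log2 fold changes of the 10 genes (purple) and of 35 other endothelial genes (green) in the 3 comparisons, sorted within each group. Filled points have an edgeR adjusted p under 0.05, open points were not called, and the line is the median. In the third panel, Interstitial against Sertoli, 5 of the 35 other genes are called below 0 while their median is 1.92.

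Against Sertoli, 29 of 35 were higher in Leydig and 3 lower (16.9% and 20.6% of all genes, median 2.28), and 28 of 35 were higher in Interstitial and 5 lower (32.7% and 29.1% of all genes, median 1.92). The small membrane protein gene Myct1 (3.45 ± 0.28, edgeR adjusted p 2.36e-05) and the adhesion gene Icam2 (3.29 ± 0.27, edgeR adjusted p 2.85e-05) led in Leydig. Kdr, the main receptor gene for vascular endothelial growth factor, had 81.3, 92.8 and 85.1 CPM in Leydig libraries A, B and C, 103, 98.4 and 104 in Interstitial, and 13.5, 13 and 13.1 in Sertoli. Tek, the partner of Tie1, had 15.9, 17 and 15.4 CPM in Leydig, 11.7, 10.7 and 9.87 in Interstitial, and 2.33, 2.67 and 2.29 in Sertoli. Vwf, for the clotting factor of endothelium and platelets, was not called in any of the 3 comparisons.

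Transcription factors of endothelium were called in both directions. Of 16, 7 were higher in Leydig than in Interstitial, 3 lower and 6 not called (median 0.35). Over all genes, 22.0% were higher and 23.2% lower. The ETS factor gene Erg had 8.03, 9.77 and 8.72 CPM in Leydig libraries A, B and C, 5.54, 4.66 and 5.13 in Interstitial, and 1.04, 1.06 and 0.97 in Sertoli. It was higher in Leydig than in Interstitial (0.82, edgeR adjusted p 0.00424) and, like Fli1 (0.45, edgeR adjusted p 0.0177), went with the SOXF genes in direction. Of the 7, Mef2c (1.16, edgeR adjusted p 4.65e-06) and Klf4 (0.94, edgeR adjusted p 0.00125) had the largest changes. Both were higher still in Sertoli. The rest of the 7 (Bcl6b, Ets1 and Elk3) were, like Erg and Fli1, lowest in Sertoli. The 3 that were lower were Gata2 (-3.61 ± 0.21, edgeR adjusted p 6.16e-06), Lyl1 (-1.60 ± 0.31, edgeR adjusted p 0.00361) and Tal1 (-1.53 ± 0.23, edgeR adjusted p 0.000969), which are also known from blood cell progenitors. Gata2 had 2.23, 2.02 and 2.36 CPM in Leydig and 31.1, 21.2 and 26.3 in Interstitial. The 11 erythroid markers summed to 142 to 504 CPM in Leydig, 11858 to 12470 in Interstitial and 142 to 404 in Sertoli, and their part in these 3 differences was not tested. Against Sertoli, 9 of 16 were higher in Leydig and 3 lower (16.9% and 20.6% of all genes). In Interstitial, 9 were higher and 3 lower (32.7% and 29.1% of all genes). Klf4, Mef2c and Foxc1 were the 3 that were lower both times.

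The authors' deposited tables list genes with a log2 fold change of at least 1 in size. The largest adjusted p from limma in them is 0.0496. In the authors' deposited table for Leydig against Interstitial 3 of the 10 genes appear, Pecam1 (-1.36), Plvap (-1.62) and Sox18 (1.20). Sox7 and Sox17 are not listed there, while edgeR called both, at 1.13 and 1.10. In the authors' deposited table for Leydig against Sertoli 9 appear, all but Plvap, and in that for Interstitial against Sertoli 9 appear, all but Sox18. The sign of every listed value is that of the edgeR fold change.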

How the data were processed

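The members and gene lists were chosen with earlier results of these data known. Libraries were stranded, ribosome-depleted total RNA run over 4 lanes, per the labels' protocols. The deposited counts are raw reads per gene for each lane. The authors used TopHat2 2.0.6, HTSeq and the mm10 build, per the submitters' processing notes. Annotation release and strand setting: not given in the sources used here. Reads outside genes (32.23 to 38.52%) and ambiguous reads (0.62 to 0.77%) stayed out of library sizes and tests. The authors' deposited tables hold log2 fold changes, p-values and test scores, per the file headers, from limma, per the submitters' processing notes.

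Lanes were summed. Replicates A and B of all 3 sorts (6 libraries, 3 residual degrees of freedom) were fitted together with edgeR 4.0.16 in R 4.3.3 (glmQLFit, glmQLFTest, TMM, filterByExpr), with Benjamini-Hochberg adjustment over 18048 genes and calls at 0.05. CPM values of all 9 libraries share one TMM scaling. SE was taken as the fold change over the root of F. P-values measure the spread between pools of litters and not between animals. Symbols came from GENCODE M21 (36638 of 38560 identifiers) and, for 34 more, from the authors' tables. TPM used the 36638 genes with a GENCODE length. All 10 genes are named; of each other list, up to 5 called genes of at least 1 CPM with the largest change could be named. Vwf, Fli1, Foxc1, Tek and some marker examples were named after their values were seen. Alternatives were DESeq2 1.42.0, limma voom (limma 3.58.1), other scalings and filters, pairwise fits, pairs of lanes, all 9 libraries, the replicate letter as a block, and each replicate left out. The fit was also run on simulated counts with known changes, for Leydig against Interstitial only. These counts were drawn with the fit's own dispersions, so the run cannot show whether the model suits these pools.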

Additional observations from a re-analysis of the deposited data

How the results depend on the processing

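Of 510 recomputed fold changes of the 10 genes (17 alternatives for each gene and comparison), 485 kept their direction and their side of the threshold, 13 lost the call, 10 gained it and 2 reversed. Leydig against Interstitial held 22 of these 25 changes. Pecam1, Plvap, Sox7, Sox17 and Sox18 kept their calls there under all alternatives. The 2 reversed values were uncalled: Emcn in Leydig against Interstitial (from -0.511 to 0.217 when single replicates were left out, 0.217 without Interstitial replicate A) and Sox18 in Interstitial against Sertoli (from -0.601 to 0.114, 0.114 without Interstitial replicate B). Without Interstitial replicate B, the fewest of the 10 genes were called higher in Leydig than in Interstitial, and fewer of all genes were called as well. The number of the 10 genes higher in Leydig than in Interstitial was 6 in the main fit. It was 4 with lanes 3 and 4 only and 7 with all 9 libraries. For the 35 other endothelial genes that number was 16, from 10 to 21 over all alternatives and from 10 to 20 when single replicates were left out. The number lower was 1, from 0 to 2 when single replicates were left out, and 2 with all 9 libraries, with library size alone, with no low-count filter, with lanes 3 and 4 only and with the replicate block. The causes were not tested. With the replicate letter as a block (replicate block), 7 of the 10 genes were higher in Leydig than in Interstitial, where Esam passed (0.542, adjusted p 0.0273). Whether pools of the same letter share litters or sorting days is not given in the labels used here. Across genes, the difference of A and B correlated at 0.248 between Leydig and Interstitial. It correlated at 0.018 between Leydig and Sertoli and at 0.1 between Interstitial and Sertoli. A shared origin of the letters was not tested further. Library size alone moved the median of all genes by 0.102 in Leydig against Sertoli and by 0.168 in Interstitial against Sertoli, and the share of calls that were higher became 58.8% (main 45.1%) in Leydig against Sertoli and 65.2% (main 52.9%) in Interstitial against Sertoli. With the longest transcript as length, 19 of 30 TPM values moved by more than their SD. Sox17 in Sertoli rests on 19 to 21 reads a library.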

Other observations

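Markers of vessel type and of mural cells were mixed in direction. Of 10 arterial markers, 9 were tested, and 3 were higher in Leydig than in Interstitial and 1 lower (median log2 fold change 0.06, against 0.01 over all genes). Over all genes, 22.0% were higher and 23.2% lower in this comparison. The gap junction gene Gja5 had 3.82, 2.48 and 3.38 CPM in Leydig libraries A, B and C, 1.68, 1.08 and 1.69 in Interstitial, and 1.21, 0.528 and 0.943 in Sertoli (Leydig against Interstitial 1.19 ± 0.37, edgeR adjusted p 0.0296). The Notch ligand gene Dll4 had 4.24, 6.34 and 4.9 CPM in Leydig, 3.64, 2.39 and 2.82 in Interstitial, and 0.701, 0.763 and 0.593 in Sertoli (0.82 ± 0.26, edgeR adjusted p 0.0309). The chemokine receptor gene Cxcr4 was the 1 that was lower (-0.48 ± 0.13, edgeR adjusted p 0.0156). In Leydig against Interstitial, 2 of 4 venous markers were higher and 0 lower, beside the same 22.0% and 23.2% of all genes. The 2 were Nrp2 (0.91 ± 0.09, edgeR adjusted p 0.000125) and Aplnr (0.67 ± 0.20, edgeR adjusted p 0.0246).

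Of 5 lymphatic markers, 4 were tested between Leydig and Interstitial, and 3 were higher (Prox1, Flt4 and Pdpn) and 1 lower (Lyve1, which macrophages also express). The shares over all genes were 22.0% higher and 23.2% lower. Prox1, the factor that sets lymphatic identity, had 4.57, 4.73 and 4.63 CPM in Leydig libraries A, B and C, 1.88, 2.18 and 1.89 in Interstitial, and 7.24, 8.65 and 7.17 in Sertoli, so its highest level was in the sort with the lowest level of the 10 endothelial genes. Of 12 genes of pericytes and smooth muscle, 4 were higher (22.0% of all genes) and 2 lower in Leydig against Interstitial. The 4 were Myh11 (1.10), Cspg4 (0.76), Acta2 (0.57) and Mcam (0.27). The 2 were the pericyte genes Kcnj8 (-1.74 ± 0.27, edgeR adjusted p 0.00112) and Rgs5 (-1.41 ± 0.16, edgeR adjusted p 0.000207), a share below the 23.2% of all genes called lower. Rgs5 had 4.66, 3.83 and 4.55 CPM in Leydig and 10.8, 11.9 and 12.6 in Interstitial.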
